A study of Homo sapiens with 6 samples.

Results

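The WNT pathway genes described here were the secreted WNT ligands, their Frizzled (FZD) receptors and LRP co-receptors, the secreted antagonists (DKK, SFRP and WIF1), and regulators that act at the membrane, in the cytoplasm or in the nucleus. They were picked by a rule on gene names, applied to the protein-coding rows of the count table. The rule was set with earlier results of these data known. The rule found 57 genes among the 57820 rows, namely 19 ligands, 10 receptors, 2 co-receptors, 9 secreted antagonists, 7 genes of the R-spondin module, 4 genes of β-catenin and its destruction complex, 4 nuclear factors and 2 Dishevelled antagonists. Of these, 35 had enough reads to be tested and 22 did not.

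RNA-seq of polyadenylated RNA had been carried out on J82 cells, a long-used line from a human bladder cancer, grown in DMEM with 10% serum. The 3 libraries labelled FOXC1 KO came from cells that had received a lentiviral CRISPR/Cas9 vector (lentiCRISPR v2) with a guide to FOXC1, a forkhead transcription factor. The 3 control libraries came from J82 cells with a control genotype, which the study's methods describe as vector control cells. Per the methods, the knockout cells were selected with puromycin and knockout clones were checked by western blotting. The labels do not say whether the 3 libraries of a group came from separate cultures or from 1 clone, so p-values measure only the spread between these libraries.

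WNT proteins are lipid-modified ligands that bind Frizzled receptors. With LRP5 or LRP6 as co-receptor, binding stops the destruction complex (AXIN, APC and kinases) from marking β-catenin for degradation, and β-catenin then acts with TCF/LEF factors in the nucleus, whereas other WNT signals run through ROR, RYK or calcium and planar polarity routes without β-catenin. R-spondins and their LGR receptors keep Frizzled at the cell surface by holding off the ubiquitin ligases RNF43 and ZNRF3, and in the bladder WNT signals are known from development and from regeneration of the urothelium.

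The libraries held 18408134 to 25350908 assigned reads, and the fit covered 15647 genes, of which 1313 fell and 1184 rose against the controls. The FOXC1 transcript itself, at 18.4, 16.9 and 19.3 CPM (read counts scaled to library size) in the controls and 24.1, 22.2 and 21.1 in the libraries labelled KO, was not lower (log2 fold change 0.30, SE 0.091, edgeR adjusted p = 0.0127), so RNA did not check the labels here. Of the listed bladder epithelial markers, 6 of 7 tested fell (among them KRT8, KRT18 and KRT19), and the summed level was 3182 to 4005 CPM in the controls and 2491 to 2768 CPM in the libraries labelled KO. KRT7, the tested marker that was not called, was at 993 ± 103 and 949 ± 68.4 CPM (edgeR adjusted p = 0.575). The uroplakin genes, E-cadherin (CDH1), KRT5 and KRT20 were near or at 0 in both groups. TP63, too scarce to be tested, went the other way, with 1, 1 and 1 reads in the controls and 4, 9 and 5 in the libraries labelled KO. Of the mesenchymal markers, SNAI2 and ZEB1 of 5 tested were higher. VIM passed the adjusted p without reaching 1.3-fold (log2 fold change 0.30, edgeR adjusted p = 0.00137). CDH2 (log2 fold change -0.11, edgeR adjusted p = 0.251) and FN1 (0.0084, edgeR adjusted p = 0.949) did not pass. The summed level was 1743 to 1881 CPM in the controls and 1805 to 2074 CPM in the libraries labelled KO. Markers of other cell types summed to 69.4 to 70.1 CPM and 54.5 to 72.2 CPM respectively, with CD3E at 0 reads in every library. Of 4 tested, the endothelial marker CDH5 was called higher, with 0, 0 and 1 reads in the controls and 18, 18 and 26 in the libraries labelled KO. CDH5 had enough reads to be tested only through the libraries labelled KO, so its rise is a description. The fibroblast marker DCN fell, from 18.5 ± 0.995 to 10.4 ± 1.63 CPM (SD, n = 3, edgeR adjusted p = 6.22e-07). LUM, a more abundant fibroblast marker, was at 50.1 ± 0.734 and 49.3 ± 7.73 CPM and was not called (edgeR adjusted p = 0.883). The part of these markers in the WNT values was not tested, and in bulk RNA fewer cells of a type and less RNA per cell cannot be told apart.

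The 250 bases before the annotated start are printed for the members on which the results turn. WNT7A is the ligand with the largest fold change, and WNT5A and WNT5B are the most abundant ligands. DKK1 is the member with the highest level per length. The sequences are from RefSeq on GRCh38.p14, 5′ to 3′ on the strand of the gene, and capitals mark the forkhead core TAAACA or its reverse complement TGTTTA, searched on both strands. The regions are chr3:13880072-13880321 on the minus strand for WNT7A, chr3:55487307-55487556 and chr3:55481399-55481648 on the minus strand for WNT5A starts 1 and 2, chr12:1616806-1617055 and chr12:1628981-1629230 on the plus strand for WNT5B starts 1 and 2, and chr10:52314031-52314280 on the plus strand for DKK1.
WNT7A: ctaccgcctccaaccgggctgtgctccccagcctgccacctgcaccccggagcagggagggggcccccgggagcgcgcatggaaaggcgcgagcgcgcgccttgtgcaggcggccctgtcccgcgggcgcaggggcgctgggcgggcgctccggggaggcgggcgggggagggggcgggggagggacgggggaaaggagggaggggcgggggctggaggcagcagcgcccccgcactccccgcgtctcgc
WNT5A start 1: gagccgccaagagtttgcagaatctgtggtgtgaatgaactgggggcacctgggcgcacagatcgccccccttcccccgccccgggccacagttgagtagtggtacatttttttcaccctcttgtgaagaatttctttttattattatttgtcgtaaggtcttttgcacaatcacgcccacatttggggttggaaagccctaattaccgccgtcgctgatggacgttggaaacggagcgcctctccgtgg
WNT5A start 2: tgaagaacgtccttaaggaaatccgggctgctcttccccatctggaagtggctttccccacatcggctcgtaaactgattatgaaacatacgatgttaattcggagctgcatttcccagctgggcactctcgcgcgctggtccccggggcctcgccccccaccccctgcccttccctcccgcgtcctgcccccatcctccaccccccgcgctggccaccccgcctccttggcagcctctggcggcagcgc
WNT5B start 1: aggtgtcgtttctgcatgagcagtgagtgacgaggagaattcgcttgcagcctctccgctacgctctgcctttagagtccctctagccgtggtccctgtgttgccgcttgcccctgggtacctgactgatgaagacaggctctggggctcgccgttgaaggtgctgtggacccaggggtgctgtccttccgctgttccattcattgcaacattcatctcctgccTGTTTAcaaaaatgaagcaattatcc
WNT5B start 2: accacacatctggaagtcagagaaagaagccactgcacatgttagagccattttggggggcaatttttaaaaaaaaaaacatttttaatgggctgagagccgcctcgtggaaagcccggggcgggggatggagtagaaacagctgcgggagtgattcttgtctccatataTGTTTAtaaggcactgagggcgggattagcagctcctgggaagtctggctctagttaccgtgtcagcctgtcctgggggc
DKK1: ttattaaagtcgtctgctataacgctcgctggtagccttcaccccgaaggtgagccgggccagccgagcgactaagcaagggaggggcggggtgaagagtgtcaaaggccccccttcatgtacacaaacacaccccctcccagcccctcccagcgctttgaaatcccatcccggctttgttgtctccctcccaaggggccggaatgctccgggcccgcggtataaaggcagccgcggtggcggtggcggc
Both WNT5B windows held the forkhead core, 20 and 74 bases before their starts. It occurred in 6 of the 50 windows available for 40 members (those of LEF1, SFRP2, TCF7, TCF7L2 and WNT5B), and in 3860 of all 35116 windows (10.99%). The TCF/LEF core CTTTGAT, or ATCAAAG on the other strand, was in 794 of all windows (2.26%) and in 0 of the 50 member windows. Of the 10 members that passed the test, 7 had a window. These matches are letters in a window and show no binding.

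Of the 35 tested members, 8 rose and 2 fell in the libraries labelled FOXC1 KO. A gene was called when its edgeR adjusted p was under 0.05 and its change exceeded 1.3-fold. Over all tested genes 7.57% were called higher and 8.39% lower. The genes that rose were the ligands WNT7A, WNT10B, WNT7B, WNT5A and WNT5B, the antagonist SFRP1, the R-spondin receptor LGR4 and the nuclear factor TCF7L1, and those that fell were the receptor FZD4 and the antagonist DKK1. A further 6 members passed the adjusted p without reaching 1.3-fold (ZNRF3, APC, WNT3, TCF7L2 and FZD2 on the higher side, FZD5 on the lower), and 19 did not pass. Over all tested genes, 29.4% passed the adjusted p. Under some alternative each of these 6 had an adjusted p above 0.05, at most 0.114 for ZNRF3, 0.066 for APC, 0.0852 for WNT3, 0.237 for TCF7L2, 0.0735 for FZD2 and 0.0676 for FZD5. With DESeq2, ZNRF3 (adjusted p = 0.108), TCF7L2 (0.108) and WNT3 (0.075) did not pass. The libraries of the groups did not overlap for 18 members, 14 of them above and 4 below the controls, where 41.3% of all tested genes did not overlap, 20.5% above and 20.8% below. The median log2 fold change over the tested members was 0.11, beside -0.00084 over all tested genes. WNT10B and DKK3 passed the filter on low counts only through the libraries labelled KO, so these counts are descriptions. With DESeq2, 7 members were called higher and 2 lower.

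**Figure D1:**
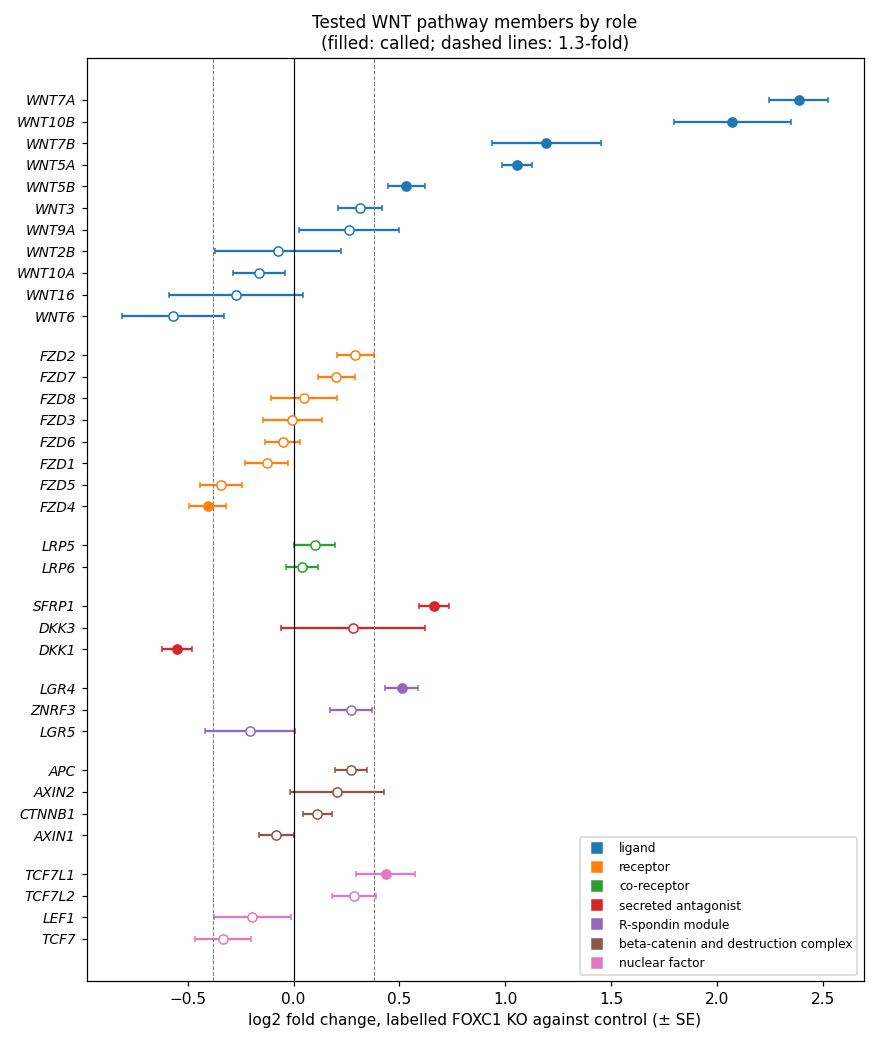
Log2 fold change (libraries labelled FOXC1 KO against control) of the 35 tested members, grouped by role, with bars for the SE; filled points were called and dashed lines mark 1.3-fold. The ligands span the widest range, from -0.57 for WNT6 to 2.39 for WNT7A, while both co-receptors lie near 0.

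The ligands held most of the members that rose, 5 of the 11 tested, where 7.57% of all tested genes were called higher. Of these 5, WNT10B passed the filter on low counts only through the libraries labelled KO, so the count is a description. By edgeR 0 ligands were called lower (1 at an unadjusted p under 0.05, and 0 with DESeq2). The median log2 fold change of the tested ligands was 0.31. WNT7A, a ligand known from β-catenin signalling in epithelia and brain vasculature (ENSG00000154764.5, chromosome 3, 13857755 to 13921568, minus strand, GRCh37), was at 2.19, 1.93 and 2.79 CPM in the controls and at 13.2, 12.3 and 10.9 CPM in the libraries labelled KO. Every library labelled KO was far above every control. The log2 fold change was 2.39 (SE 0.14, edgeR adjusted p = 7.91e-14), a 5.23-fold rise.

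WNT10B, a β-catenin ligand with known roles in bone and fat (ENSG00000169884.9, chromosome 12, 49359123 to 49365518, minus strand), was scarce, with 6, 18 and 10 reads in the controls and 37, 53 and 44 in the libraries labelled KO. On the scale of CPM these were 0.268, 0.738 and 0.393 against 2.01, 2.10 and 1.87. The groups stood apart, although the controls varied among themselves, with an SD of 0.243 around a mean of 0.466 CPM. The log2 fold change was 2.07 (SE 0.28, edgeR adjusted p = 1.05e-06), and it ranged from 1.81 to 2.56 over the alternatives. As WNT10B passed the filter on low counts only through the libraries labelled KO, these values are descriptions. WNT7B, the close relative of WNT7A (ENSG00000188064.5, chromosome 22, 46316246 to 46373042, minus strand), had 16, 13 and 17 reads in the controls and 31, 34 and 33 in the others, or 0.714, 0.533 and 0.669 CPM against 1.69, 1.35 and 1.40 CPM. The groups did not overlap, and the log2 fold change was 1.19 (SE 0.26, edgeR adjusted p = 0.000715).

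WNT5A, the ligand best known for signalling through ROR receptors without β-catenin (ENSG00000114251.9, chromosome 3, 55499743 to 55524567, minus strand), was at 87.2, 88.8 and 92.0 CPM in the controls and at 189.9, 175 and 192 CPM in the libraries labelled KO. Its controls differed little, and every library labelled KO was far above them. The log2 fold change was 1.06 (SE 0.070, edgeR adjusted p = 1.13e-12), a 2.08-fold rise. WNT5A-AS1, an RNA on the opposite strand that overlaps WNT5A, rose as well, from 3.63 ± 0.436 CPM to 7.48 ± 0.797 CPM (SD, n = 3; log2 fold change 1.03, edgeR adjusted p = 7.18e-07). The strand setting of the counting is not given in the sources used here, so reads of the pair cannot be told apart. The antisense gene had the smaller count but is short. In RPKM (CPM divided by exon length in kilobases) it was at 7.26 and 14.97, beside 12.5 and 26.0 for WNT5A.

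WNT5B, the paralog of WNT5A (ENSG00000111186.8, chromosome 12, 1639057 to 1756378, plus strand), was at 99.5, 72.4 and 81.8 CPM in the controls and at 124, 127 and 116 CPM in the libraries labelled KO. Control 1 was the highest control, and still below every library labelled KO. The log2 fold change was 0.53 (SE 0.086, edgeR adjusted p = 1.9e-05), and it ranged from 0.43 to 0.66 over the alternatives. The ratio of WNT5A to WNT5B in RPKM was 0.519, 0.727 and 0.667 in the controls and 0.908, 0.819 and 0.981 in the others. These ratios did not overlap between the groups, and their difference was not tested.

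The other 6 tested ligands were not called. WNT3, which activates β-catenin, went from 8.71 ± 0.330 to 10.8 ± 0.0589 CPM (log2 fold change 0.31, edgeR adjusted p = 0.0226, under 1.3-fold). WNT6 was at 1.78, 1.27 and 1.495 CPM in the controls and 1.31, 0.992 and 0.808 CPM in the others, with overlap (log2 fold change -0.57, edgeR adjusted p = 0.0764). It passed the test without KO-labelled library 1 (-0.74, edgeR adjusted p = 0.0421). WNT10A, the neighbour of WNT6 in the genome, stayed within the spread of its libraries, at 6.83 ± 0.611 and 6.12 ± 0.501 CPM. WNT9A, WNT16 and WNT2B had group means between 0.672 and 1.34 CPM, and their groups overlapped.

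Summed over all 19 ligands, the level per length was 42.2, 35.5 and 38.6 RPKM in the controls and 65.6, 63.2 and 63.0 RPKM in the libraries labelled KO, 1.65 times as high. The groups did not overlap, and the sum, which holds the called ligands, is given as a description. WNT5A and WNT5B made up most of that sum, 83.6 ± 0.755% in the controls and 85.8 ± 0.599% in the others. Without the pair, the sum was 6.33 ± 0.268 RPKM and 9.10 ± 0.589 RPKM. Within the ligands, the share of WNT7A went from 1.31 ± 0.249% to 4.19 ± 0.326%, while that of WNT10A went from 6.03 ± 0.0227% to 3.28 ± 0.209%. In the controls WNT10A and WNT3 were thus the most abundant ligands after WNT5A and WNT5B, and in the libraries labelled KO WNT7A was.

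**Figure D2:**
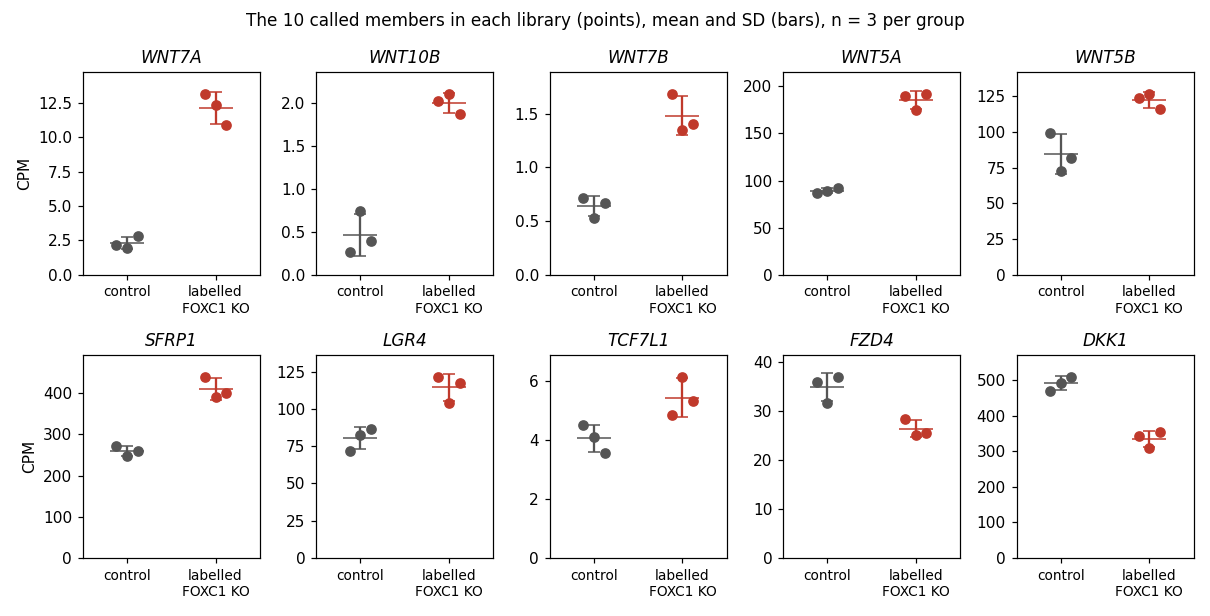
CPM of the 10 called members in each library (points), with the mean and SD of each group of 3 libraries (bars) on axes that start at 0. In every panel the libraries labelled FOXC1 KO lie wholly above the controls, except for FZD4 and DKK1, where they lie wholly below, and for TCF7L1 the nearest libraries are at 4.51 and 4.84 CPM.

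Of the 8 receptors tested, 1 was called lower and 0 higher by edgeR (2 higher at an unadjusted p under 0.05, and 0 with DESeq2), a share near the 16.0% called over all tested genes, and their median log2 fold change was -0.029. FZD4, a receptor for WNT ligands and for Norrin in retinal vessels (ENSG00000174804.3, chromosome 11, 86656721 to 86666437, minus strand), was at 36.1, 31.7 and 37.03 CPM in the controls and at 28.4, 25.2 and 25.6 CPM in the libraries labelled KO. The groups were close but did not overlap. The log2 fold change was -0.41 (SE 0.087, edgeR adjusted p = 0.000622), just past 1.3-fold. It was under 1.3-fold without control 3 (-0.36, edgeR adjusted p = 0.00697) or without KO-labelled library 2 (-0.37, edgeR adjusted p = 0.00669). PRSS23, which overlaps FZD4 on the opposite strand and had more reads, was at 414 ± 20.0 CPM and 367 ± 16.3 CPM and was not called (edgeR adjusted p = 0.0596).

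FZD5, at 15.8, 16.8 and 15.4 CPM in the controls and 13.8, 11.5 and 12.7 CPM in the others, passed the adjusted p on the lower side without reaching 1.3-fold (log2 fold change -0.34, edgeR adjusted p = 0.00925). It was called without KO-labelled library 1 (-0.41, edgeR adjusted p = 0.00754). FZD2, one of the most abundant receptors, was at 62.7, 49.6 and 50.6 CPM in the controls and 69.0, 70.3 and 59.9 CPM in the others. Its control 1 overlapped the libraries labelled KO, and without it FZD2 was called higher (log2 fold change 0.40 in place of 0.29, edgeR adjusted p = 0.000116). FZD7 was above its controls in every library labelled KO, at 26.2 ± 2.53 and 30.1 ± 1.33 CPM, and did not pass the test (log2 fold change 0.20, edgeR adjusted p = 0.0816).

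FZD1, FZD3, FZD6 and FZD8 had fitted log2 fold changes between -0.13 and 0.049, with overlapping groups, and the sign for FZD3, FZD6 and FZD8 turned when single libraries were left out. The sum over the 10 receptors was 50.2, 46.3 and 48.6 RPKM in the controls and 51.4, 48.8 and 50.05 RPKM in the others, so the groups overlapped. FZD6 and FZD2 were the main receptors by level per length, with 36.6 ± 3.70% and 29.7 ± 2.95% of that sum in the controls and 34.1 ± 3.47% and 35.1 ± 3.25% in the libraries labelled KO. The co-receptors LRP5 (23.6 ± 2.38 and 25.2 ± 2.75 CPM) and LRP6 (45.7 ± 1.27 and 47.0 ± 1.73 CPM) did not pass the test, with SEs of 0.095 and 0.076 on log2 fold changes of 0.099 and 0.040.

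The secreted antagonists were dominated by DKK1 and SFRP1, which moved in opposite directions. DKK1, which blocks the co-receptors LRP5 and LRP6 and is itself a β-catenin target (ENSG00000107984.5, chromosome 10, 54074041 to 54077802, plus strand), was at 471, 493 and 509 CPM in the controls and at 342, 309 and 354 CPM in the libraries labelled KO. No library of one group reached the other. DKK1 fell by 0.55 on the log2 scale (SE 0.071, edgeR adjusted p = 5.18e-07). SFRP1, which binds WNT proteins through a Frizzled-like domain (ENSG00000104332.7, chromosome 8, 41119481 to 41166992, minus strand), was at 271, 247 and 259 CPM in the controls and at 439.8, 391 and 401 CPM in the others. Here too the groups were well apart, with a log2 fold change of 0.67 (SE 0.070, edgeR adjusted p = 1.58e-08).

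The ratio of DKK1 to SFRP1 in RPKM put both changes into 1 value per library. It was 3.70, 4.25 and 4.19 in the controls and 1.66, 1.68 and 1.88 in the libraries labelled KO, as a description of 2 members already called in opposite directions. DKK1 made up 80.1 ± 1.22% of the summed antagonist RPKM in the controls and 63.4 ± 1.61% in the others, and SFRP1 19.8 ± 1.23% and 36.5 ± 1.61%. DKK3, the remaining tested antagonist, was scarce, at 0.628 ± 0.348 and 0.762 ± 0.150 CPM, and was not called.

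**Figure D3:**
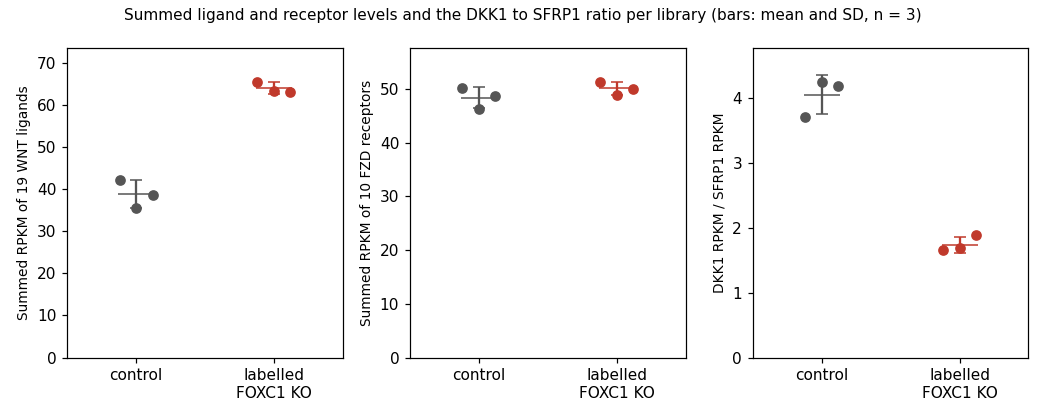
Summed RPKM of the 19 ligands, summed RPKM of the 10 receptors and the ratio of DKK1 to SFRP1 RPKM in each library (points), with the mean and SD of each group of 3 (bars). The ligand sums (35.5 to 42.2 against 63.0 to 65.6) and the ratios (3.70 to 4.25 against 1.66 to 1.88) separate the groups, whereas the receptor sums overlap.

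In the R-spondin module, LGR4 rose. This receptor for R-spondins (ENSG00000205213.9, chromosome 11, 27387508 to 27494337, minus strand) was at 72.0, 82.6 and 86.2 CPM in the controls and at 122, 104 and 118 CPM in the libraries labelled KO. The lowest of the latter was above the highest control, and the log2 fold change was 0.51 (SE 0.079, edgeR adjusted p = 1.03e-05). Its relative LGR5, a stem cell marker of the gut and a β-catenin target, was far scarcer, at 2.11 ± 0.691 and 1.83 ± 0.110 CPM, and overlapped between groups (log2 fold change -0.21, edgeR adjusted p = 0.503). LGR5 overlaps TSPAN8, which lies on the opposite strand and fell from 29.2 ± 2.74 to 5.33 ± 0.406 CPM. ZNRF3, the ligase that removes Frizzled receptors from the membrane, was at 10.4 ± 0.392 and 12.6 ± 0.517 CPM (log2 fold change 0.27, edgeR adjusted p = 0.0412, under 1.3-fold).

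Among β-catenin and the genes of its destruction complex, 0 of 4 were called by edgeR (1 higher and 0 lower at an unadjusted p under 0.05, and 0 with DESeq2). Over all tested genes, 16.0% were called in either direction. CTNNB1, which encodes β-catenin, was at 552, 548 and 563 CPM in the controls and 576, 586 and 635 CPM in the others. The groups did not overlap, yet the log2 fold change of 0.11 (SE 0.069) did not pass the test (edgeR adjusted p = 0.236). APC, the scaffold of the complex, was at 52.7, 59.2 and 52.3 CPM in the controls and 65.3, 64.7 and 67.9 CPM in the others (log2 fold change 0.27, edgeR adjusted p = 0.00758, under 1.3-fold). AXIN1, the other scaffold, was at 41.5 ± 3.96 and 39.2 ± 2.39 CPM. AXIN2, widely used as a readout of β-catenin activity, was scarce and variable, at 1.25, 1.89 and 1.18 CPM in the controls and 1.90, 1.51 and 1.62 CPM in the libraries labelled KO. Its groups overlapped (log2 fold change 0.20, SE 0.22, edgeR adjusted p = 0.533), and an SE of this size leaves small changes of AXIN2 undetectable at this depth.

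Of the 4 nuclear factors, TCF7L1 rose. It is the family member known mainly as a repressor (ENSG00000152284.4, chromosome 2, 85360515 to 85537510, plus strand), and it was at 4.51, 4.10 and 3.58 CPM in the controls and at 4.84, 6.15 and 5.32 CPM in the others. The closest libraries nearly touched. The log2 fold change was 0.43 (SE 0.14, edgeR adjusted p = 0.0189), and the call was lost with DESeq2 (adjusted p = 0.0951), with libraries thinned to equal depth (edgeR adjusted p = 0.105), without control 3 (edgeR adjusted p = 0.114) and without KO-labelled library 2 (edgeR adjusted p = 0.128). TCF7L2, the main TCF of many epithelia, was at 8.96 ± 0.386 and 10.9 ± 0.136 CPM (log2 fold change 0.29, edgeR adjusted p = 0.0362, under 1.3-fold). TCF7 was at 5.58, 5.25 and 4.96 CPM in the controls and 4.19, 4.33 and 3.998 CPM in the others. Every library labelled KO was below every control, but the change missed the threshold (log2 fold change -0.33, edgeR adjusted p = 0.0584), and TCF7 overlaps the more abundant SKP1 on the opposite strand (260 ± 5.97 and 315 ± 19.4 CPM). LEF1 was at 2.67 ± 0.166 and 2.36 ± 0.556 CPM, with overlap.

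The 22 members that failed the filter on low counts were at or near 0. The ligands WNT1, WNT3A, WNT8A and WNT9B, the receptor FZD10, the antagonists DKK4, SFRP2 and SFRP5 and the Dishevelled antagonist NKD2 had 0 reads in all 6 libraries. The other 13 reached at most 10 reads in a library, the highest being WNT4 in control 2. They were the ligands WNT2, WNT4, WNT8B and WNT11, the receptor FZD9, the antagonists DKK2, SFRP4 and WIF1, the R-spondins RSPO1 and RSPO3, the receptor LGR6, the ligase RNF43 and the Dishevelled antagonist NKD1. Among these 13, 4 had groups that did not overlap, where 41.3% of all tested genes did not overlap. With so few reads, their counts are descriptions. SFRP4 had 5, 7 and 7 reads in the controls and 1, 2 and 3 in the others, WIF1 2, 1 and 3 against 0, 0 and 0, RSPO3 5, 4 and 5 against 8, 9 and 7, and FZD9 1, 3 and 3 against 3, 4 and 5, the last apart only on the scale of CPM. Without the filter 0 of these members were called by edgeR (2 at an unadjusted p under 0.05), and DESeq2 gave an adjusted p to only 1 of the 22.

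By level per length the members covered a wide range. The exon lengths are from a later GENCODE release than the one the authors counted on, and the order depends on them. DKK1 was the highest at 221 ± 8.69 RPKM in the controls and 151 ± 10.5 RPKM in the libraries labelled KO, followed by SFRP1 (54.7 ± 2.54 and 86.7 ± 5.44 RPKM) and CTNNB1 (47.2 ± 0.659 and 51.0 ± 2.69 RPKM). These 3 kept that order in every library. By CPM, which takes no account of length, CTNNB1 (555 ± 7.74 and 599 ± 31.7 CPM) was above DKK1 (491 ± 19.3 and 335 ± 23.4 CPM). Next came WNT5B at 19.9 ± 3.24 and 28.8 ± 1.28 RPKM and FZD6 at 17.7 ± 1.36 and 17.1 ± 1.84 RPKM. FZD2 (14.4 ± 1.92 and 17.6 ± 1.503 RPKM), LGR4 (12.6 ± 1.16 and 18.01 ± 1.42 RPKM) and WNT5A (12.5 ± 0.345 and 26.0 ± 1.303 RPKM) followed, and neighbours from WNT5B to WNT5A overlapped in the controls. In the libraries labelled KO, WNT5B, WNT5A and LGR4 were separated from each other in every library. FZD7 (5.71 ± 0.551 and 6.57 ± 0.291 RPKM) and AXIN1 (5.51 ± 0.526 and 5.21 ± 0.317 RPKM) completed the 10 most abundant members. WNT7A, in contrast, was the 25th of the 35 tested members in the controls, at 0.508 ± 0.0982 RPKM, and the 15th in the libraries labelled KO, at 2.68 ± 0.255 RPKM.

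**Figure D4:**
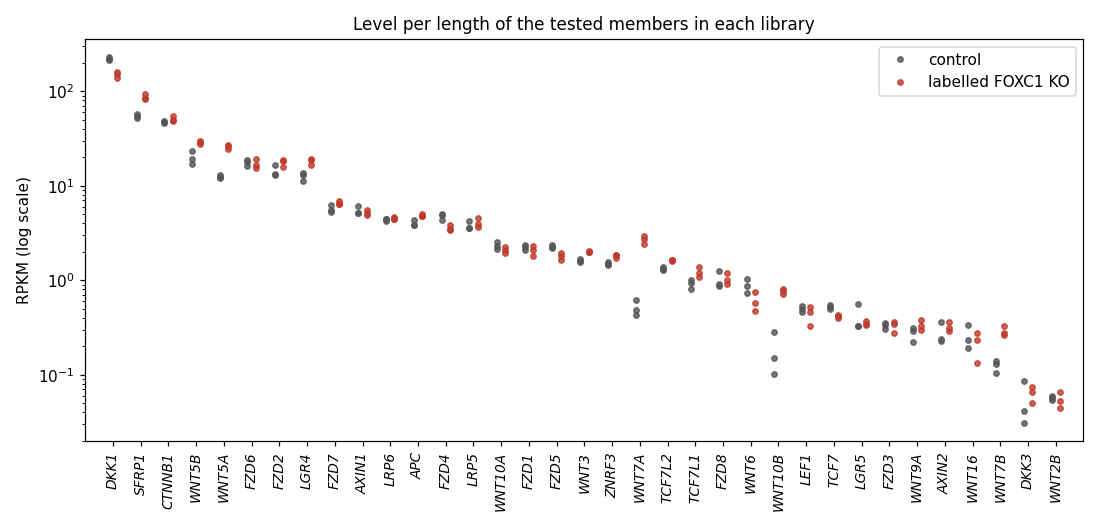
RPKM (log scale) of the 35 tested members in each library, ordered by their mean over the 6 libraries, with control libraries in grey and libraries labelled FOXC1 KO in red. DKK1, SFRP1 and CTNNB1 stand above the rest, and WNT7A and WNT10B show the widest gaps between the groups.

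The other genes of the pathway, a list of 68 with secretion factors, kinases, co-receptors, co-repressors and planar polarity genes, is given for context. Of 58 tested, 6 were called higher and 7 lower, 12 passed the adjusted p alone and 33 did not pass. Over all tested genes 16.0% were called in either direction. The median log2 fold change of the list was 0.056. CXXC4 and DACT3, both called lower, passed the filter on low counts only through the controls, so these counts are descriptions. The called genes higher in the libraries labelled KO were PTK7, a co-receptor of planar polarity signalling (66.1 ± 8.10 to 99.2 ± 4.74 CPM), PRICKLE1, a core planar polarity protein (11.03 ± 0.610 to 17.6 ± 0.889 CPM), LRP4, a relative of LRP5 and LRP6 (1.80 ± 0.131 to 3.72 ± 0.501 CPM), the Dishevelled-binding CXXC5 (25.6 ± 1.72 to 35.1 ± 1.14 CPM) and DACT1 (8.03 ± 0.466 to 11.7 ± 0.643 CPM), and the co-repressor TLE3 (4.65 ± 0.723 to 7.17 ± 0.693 CPM). Their edgeR adjusted p ran from 1.83e-06 for PTK7 to 0.000615 for TLE3.

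Among the pathway genes that fell, the glypican GPC4 (16.2 ± 0.882 to 8.22 ± 0.459 CPM) had the smallest p (edgeR adjusted p = 1.27e-08). The co-repressor TLE4 went from 171 ± 6.39 to 126 ± 7.99 CPM, so TLE3 and TLE4 moved in opposite directions. TRABD2A, a metalloprotease that inactivates WNT proteins, went from 16.5 ± 1.10 to 10.8 ± 0.868 CPM. RHOU (7.87 ± 0.835 to 5.19 ± 0.214 CPM), a small GTPase, NFATC1 (3.01 ± 0.473 to 1.70 ± 0.252 CPM), a factor of the calcium route, and the scarce CXXC4 (0.793 ± 0.246 to 0.255 ± 0.156 CPM), a Dishevelled inhibitor, fell as well. CXXC4 passed the filter on low counts only through the controls, with 8, 4 and 4 reads in the libraries labelled KO, so its value is a description. The same holds for DACT3, the remaining gene called lower. It had 15, 16 and 23 reads in the controls and 4, 14 and 3 in the libraries labelled KO. WLS, PORCN and ROR2, which act in WNT secretion or WNT5A reception, were chosen after their values were seen, and were not called. Nor were ROR1 (4.97 ± 0.132 and 5.68 ± 0.728 CPM, log2 fold change 0.18) and RYK (80.4 ± 4.99 and 84.3 ± 5.30 CPM, log2 fold change 0.066). WLS, the carrier of WNT proteins to the surface, was at 104 ± 8.84 and 125 ± 7.12 CPM (log2 fold change 0.26, edgeR adjusted p = 0.00984, under 1.3-fold), PORCN, which attaches the lipid, at 18.8 ± 0.935 and 20.0 ± 2.15 CPM, and the receptor ROR2 at 3.40 ± 0.429 and 2.57 ± 0.243 CPM (log2 fold change -0.41, edgeR adjusted p = 0.0616).

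Of the 8 members known as feedback targets of β-catenin and TCF (AXIN2, NKD1, RNF43, ZNRF3, LGR5, LEF1, TCF7 and DKK1), 6 were tested. DKK1 was the only one called, on the lower side, a share of 16.7% that was near the 16.0% called over all tested genes. By edgeR 0 were called higher (1 higher and 2 lower at an unadjusted p under 0.05, and with DESeq2 0 higher and 1 lower). ZNRF3 passed the adjusted p alone on the higher side. A separate list of 42 genes named in general as WNT targets held 15 higher and 3 lower of 31 tested, where 7.57% of all tested genes were higher and 8.39% lower, and its median log2 fold change was 0.36. Many of these genes also answer to other signals, and the list is described by its counts.

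The targets that rose with the smallest p were EDN1 (72.6 ± 2.74 to 172 ± 7.25 CPM), a vasoconstrictor peptide, VEGFA (95.5 ± 5.36 to 192 ± 4.99 CPM), an endothelial growth factor, MMP14 (55.5 ± 5.62 to 115 ± 8.11 CPM), a membrane protease, CLDN1 (34.3 ± 0.174 to 65.8 ± 2.01 CPM), a tight junction protein, PLAUR (37.6 ± 1.44 to 66.4 ± 3.504 CPM), the urokinase receptor, and MYC (47.6 ± 1.84 to 79.4 ± 1.94 CPM), a growth regulator. Their log2 fold changes ran from 0.74 for MYC to 1.25 for EDN1. The targets that fell were ABCB1, a drug efflux pump (117 ± 5.18 to 27.4 ± 1.53 CPM, log2 fold change -2.09), TIAM1, an activator of RAC (12.7 ± 0.729 to 6.71 ± 0.882 CPM, log2 fold change -0.93) and ID2, an inhibitor of helix-loop-helix factors (1.06 ± 0.264 to 0.234 ± 0.0937 CPM, log2 fold change -2.14). ID2 passed the filter on low counts only through the controls, with 3, 5 and 8 reads in the libraries labelled KO, so its value is a description. The feedback genes and the general targets are drawn side by side in the plot of their fold changes.

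**Figure D5:**
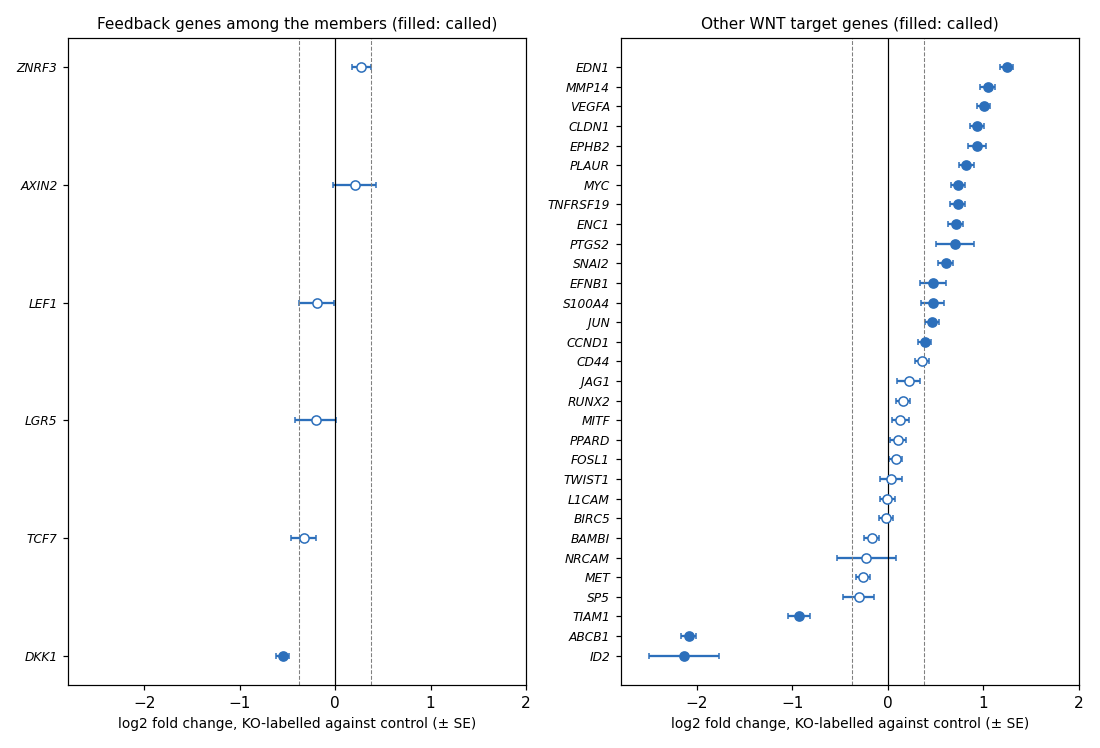
Log2 fold change (libraries labelled FOXC1 KO against control, bars for the SE) of the 6 tested feedback genes, left, and of the 31 tested general target genes, right; filled points were called and dashed lines mark 1.3-fold. Among the feedback genes only DKK1 is filled, at -0.55, while the targets run from -2.14 for ID2 to 1.25 for EDN1. ID2 passed the filter on low counts only through the controls.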

How the data were processed

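RNA-seq libraries of J82 cells, 3 control and 3 labelled FOXC1 KO, were grouped by GEO's labels. The authors had aligned paired reads to hg19 with STAR and assigned them to GENCODE genes with featureCounts, and deposited raw counts per gene. Strand and multi-mapping settings and tool versions are not given in the sources used here, so counts of overlapping and antisense genes and of near-identical copies are uncertain, and depth limits the scarce members. All 57820 rows named a gene, 0 columns belonged to other samples, and libraries held 18408134 to 25350908 counts. Libraries of a group differed by more than sampling noise (chi-square per gene 2.73 to 9.15).

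Symbols, coordinates and exon lengths were matched by gene identifier to GENCODE gene models on GRCh37, which is the hg19 assembly (55538, 96.05%, matched). These models are from a later release than the one the authors counted on, so RPKM rests on exon lengths that can differ from theirs. PECAM1 was not analysed here. Promoters were from RefSeq on GRCh38.p14, a different build, and 17 members had none. The coordinates of the builds were not compared.

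Genes passing filterByExpr (15647) were normalized with TMM and compared with the robust quasi-likelihood test of edgeR 4.0.16 in R 4.3.3, with group as the only term. Calls required a Benjamini-Hochberg adjusted p under 0.05 over all tested genes and more than 1.3-fold. SEs came from the F statistic. DESeq2 1.42.0, other scalings and filters, thinning, a replicate block and leaving out each library were alternatives. CPM used TMM-scaled library sizes, RPKM divided CPM by exon length, and both are given as mean ± SD (n = 3). The fit was tested on simulated data.

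The members and lists were chosen with earlier results of these data known. Called members are named in full, the others by role, the 10 highest by RPKM with group means, and up to 6 called genes per direction from each list by smallest p. Figures used matplotlib.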

Additional observations from a re-analysis of the deposited data

How the results depend on the processing

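The fold threshold moved the counts most. With the adjusted p alone, 13 members were higher, and 14 other pathway genes were higher and 11 lower. At more than 2-fold, 4 members were higher and 0 lower by edgeR, 1 other pathway gene was higher and 2 lower, and 3 targets were higher. With 1 library left out in turn, 1 to 4 members were called lower (1 without control 3 or without KO-labelled library 2, and 4 without KO-labelled library 1) and 7 to 9 higher, and the median log2 fold change of the members was 0.074 to 0.15. The calls of FZD4 and TCF7L1 were lost there as given above. With the replicate block, 8 members were higher and 2 lower, and the block changed no call of a member. Pairing by number was not borne out, as libraries sharing a number had correlated deviations of only -0.027, -0.072 and 0.050. Small changes of uncalled members turned sign. FZD8 was at -0.11 after thinning to equal depth. Leaving out single libraries gave log2 fold changes of -0.073 to 0.22 for FZD8, -0.079 to 0.082 for FZD3, -0.15 to 0.020 for FZD6, -0.34 to 0.093 for LGR5, -0.53 to 0.0070 for WNT16 and -0.25 to 0.066 for WNT2B. The cause was not tested. Over the tested members and their alternatives, 425 values kept direction and side of the threshold, 6 lost the call, 3 gained it and 12 turned sign. A minimum mean of 50 counts left WNT10B and WNT7B, among others, untested. Scarce genes such as AXIN2, LGR5 and WNT10B are limited by depth.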

Other observations

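The genes next to the called members were read from the same fit, as positions without a claim about shared control. Tested genes that overlap a called member were left out of this count. These were WNT5A-AS1, which was called higher, and PRSS23, FBXL14 and PRKG1-AS1, which were not called. Of the 20 nearest tested genes without overlap, 1 on each side of the 10 called members, 2 were called, both in the direction of their neighbour. The other 18 were not called, and the share called is no more than the 16.0% over all tested genes. CACNA2D3, a calcium channel subunit gene 391.159 kb from WNT5A, had a log2 fold change of 1.89 (edgeR adjusted p = 1.46e-09). LINC00942, a long non-coding RNA gene 22.573 kb from WNT5B, had a log2 fold change of 2.03 (edgeR adjusted p = 1.17e-09). ERC2, on the other side of WNT5A, and ADIPOR2, on the other side of WNT5B, were not called, with log2 fold changes of 0.52 (edgeR adjusted p = 0.0684) and -0.21 (edgeR adjusted p = 0.0205). For WNT7A, the largest rise among the ligands, the neighbours FBLN2 and CHCHD4 were not called either.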
